A study of Homo sapiens with 60 samples.

Results

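H1975 (NCI-H1975) is an EGFR-mutant non-small cell lung cancer (NSCLC) cell line, and the data describe what sets its untreated state apart from that of 3 other EGFR-mutant NSCLC lines, PC9, HCC827 and HCC2935. The 3 untreated H1975 libraries were chosen by their sample labels out of 60 RNA-seq libraries, and were set against the mean of the group means of the 3 other untreated lines, with 3 libraries each. Untreated cells of all 4 lines had been kept without drug for 21 days and then received the vehicle DMSO for 24 h. In the other 4 arms, with biological triplicates throughout, each line received the EGFR inhibitor osimertinib at 500 nM for 24 h (acute) or for 21 days, which leaves drug-tolerant persister cells (DTPs), or was released from the latter into drug-free medium for 24 h (short washout) or for longer (long washout, 3 days in H1975). Long washout was of another length in each of the other lines. Each line holds the cells of a single tumour in culture, so that the comparison is between these 4 cultures. The labels' growth text names NCI-H1975 for libraries of every line, and the titles and other labels were used for the groups.

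EGFR is the receptor tyrosine kinase whose mutation drives these tumours, and it signals through the RAS and ERK and the PI3K cascades. Carcinoma cells can lose epithelial adhesion, tight junctions and keratins and gain vimentin and matrix genes under transcription factors such as ZEB1 and SNAI1, a shift called the epithelial-to-mesenchymal transition. Such a shift is a known companion of reduced dependence on EGFR in lung cancer lines.

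Values per library are counts scaled to library size (CPM) after TMM scaling, which corrects for library composition, and log2 fold changes come from edgeR's quasi-likelihood test over all genes with Benjamini-Hochberg adjustment, with calls at an adjusted p under 0.05. Libraries held 42.4 to 47.5 M counts in H1975, 36.9 to 47.1 M in PC9, 19.7 to 22.5 M in HCC827 and 20.4 to 24 M in HCC2935, so that depth and line went together. Pearson's r of log2 CPM was between 0.985 and 0.996 within lines, between 0.892 and 0.91 for H1975 against HCC827, between 0.863 and 0.871 against PC9 and between 0.839 and 0.854 against HCC2935. Among the H1975 libraries, replicate 2 stood apart, most of all in epithelial genes. Over 40 such genes its log2 values lay a median of 0.84 below the mean of replicates 1 and 3, against a median of 0.00395 over all genes tested. The same median was -0.50 for interferon-stimulated genes, -0.25 for integrins and laminins and 0.32 for YAP, TAZ and TEAD genes. Counts without it are given for several lists, including the 4 in which a count moved by over 1.5 times.

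Of 19712 genes, 15214 were tested and 9267 were called in untreated H1975. Of all genes tested, 32.5% were called higher than the mean of the other lines and 28.4% lower. A change of at least 2-fold was called for 2128 higher and 1734 lower genes. Called against each of the 3 lines as well, with the same sign, were 1476 higher genes (9.7%) and 1365 lower genes (8.97%). All 3 H1975 libraries lay above the 9 others in 11.8% of genes and below them in 9.46%. The median log2 fold change over all genes was 0.02. With library size as the only scaling it was 0.19, and the share of higher genes among the calls went from 53.4% to 65.9%. The groups below are read beside these background shares.

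The carcinoma identity of the line was kept at reduced level. All 6 epithelial markers fixed for the check (EPCAM, CDH1 and the keratins KRT7, KRT8, KRT18 and KRT19) were present and all were called lower, with a median log2 fold change of -1.59. Their summed transcript abundance (TPM, a level per transcript length) lay between 3610 and 4620 in H1975, against 8230 to 13500 in the other lines. KRT18, the type I keratin of simple epithelia, was at 839, 728 and 759 CPM in H1975 replicates 1 to 3 and between 2353 and 3055 CPM in the 9 other libraries. The groups did not overlap, and the log2 fold change was -1.77 (SE 0.09, edgeR adjusted p = 2.39e-09). KRT8, its partner, changed by -1.65 (SE 0.10, edgeR adjusted p = 1.27e-08). Over all 19 keratins tested, 15 were lower, 2 were higher and the median log2 fold change was -1.88. KRT13, a keratin of stratified epithelia, was at 0.0694 CPM as a mean in H1975, against 66.7 CPM in PC9, 46.7 CPM in HCC2935 and 0.55 CPM in HCC827. The sum of alveolar markers was low in H1975: 9 of them in the table summed to 12.8 to 14.8 TPM, close to PC9 (9.52 to 10.6 TPM) and below HCC827 (34.9 to 83.6 TPM) and HCC2935 (257 to 287 TPM). ABCA3 led the H1975 sum and went the other way, with a mean of 10 TPM against 5.03 TPM in PC9, 3.92 TPM in HCC827 and 3.44 TPM in HCC2935. NAPSA was at 1.44 TPM in H1975 and 0.343 TPM in PC9, against 50.7 TPM in HCC827 and 228 TPM in HCC2935.

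Epithelial adhesion genes were lower in H1975 almost throughout the list. Of 40 genes tested, 35 were called lower and 1 higher, 22 were lower than in each line, and the median log2 fold change was -1.68. Without H1975 replicate 2, 33 were lower and the median was -1.31. EHF, an epithelial ETS transcription factor, was at 1.02, 0.971 and 1.13 CPM in H1975 and at no less than 39.5 CPM in any other library. The 3 H1975 values were thus low throughout, with a log2 fold change of -6.91 (SE 0.25, edgeR adjusted p = 1.49e-10). RAB25, a small GTPase of apical recycling, was at 2.1, 0.885 and 1.3 CPM, against 22.9 to 119 CPM elsewhere (log2 fold change -5.54, SE 0.26, edgeR adjusted p = 1.52e-09). CLDN1, a tight junction claudin, changed by -4.34 and PKP2, a desmosomal plaque protein, by -4.06. EPCAM was at 239, 106 and 216 CPM in H1975, and its lowest value is that of replicate 2. The other lines held 406 to 609 CPM, and the log2 fold change of -1.50 became -1.22 without replicate 2, still called by edgeR (adjusted p = 2.74e-07). CDH1, which encodes E-cadherin, was at 328, 119 and 297 CPM. PC9 overlapped that range with 308 to 339 CPM, whereas HCC827 and HCC2935 held 975 to 1533 CPM, so that CDH1 was lower than the mean (log2 fold change -1.66, edgeR adjusted p = 2.99e-05) and not separated from PC9. The gene that went the other way was DSP, desmoplakin, at 530 ± 44.7 CPM (SD, n = 3) against line means of 164 to 330 CPM (log2 fold change 1.13).

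**Figure D1:**
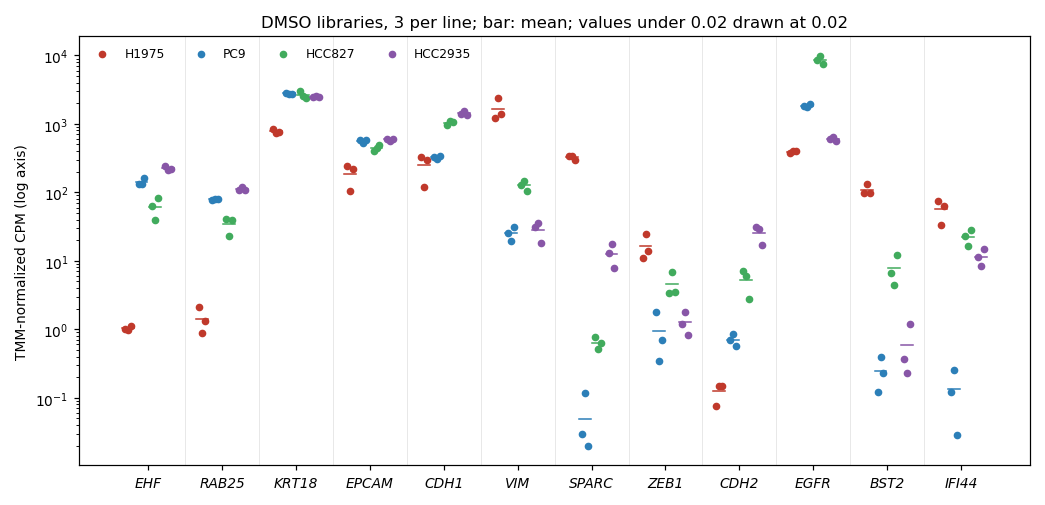
TMM-normalized CPM on a log axis for 12 genes in the 12 DMSO libraries, with a point per library, a bar at each line's mean (n = 3) and values under 0.02 drawn at 0.02. H1975 (red) sits below every other library for EHF, RAB25, KRT18, EPCAM, CDH2 and EGFR and above every other library for VIM, SPARC, ZEB1, BST2 and IFI44, while its CDH1 overlaps that of PC9.

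Mesenchymal genes were mostly higher. Of 33 tested, 26 were called higher and 2 lower, 14 were higher than in each line (25 higher and 2 lower without replicate 2), and the median log2 fold change was 1.56 (1.46 with members at 0 in a line set to a floor of 3 counts over that line's libraries). VIM, the intermediate filament vimentin, was at 1205, 2361 and 1397 CPM in H1975. No other library exceeded 148 CPM, and the log2 fold change was 5.20 (SE 0.20, edgeR adjusted p = 2.95e-10). SPARC, a secreted matricellular protein, was at 345, 342 and 295 CPM, against at most 17.5 CPM in HCC2935, 0.771 CPM in HCC827 and 0.116 CPM in PC9 (log2 fold change 8.72, SE 0.21). ZEB1, a repressor of epithelial genes, was at 11, 25 and 14.1 CPM in H1975 and at 0.348 to 6.93 CPM elsewhere. Its log2 fold change was 3.25 (SE 0.36, edgeR adjusted p = 3.74e-06) and 2.84 without replicate 2. SNAI1, another such repressor, reached 41.3 ± 10.7 CPM against line means of 1.01 to 9.37 CPM. The pair that was lower were CDH2 and FBN1. CDH2, N-cadherin, which often rises where E-cadherin falls, was at 0.077, 0.151 and 0.15 CPM in H1975 and at 0.572 to 31.3 CPM in the other lines (log2 fold change -5.17, SE 0.42, edgeR adjusted p = 2.46e-07). FBN1, the microfibril protein fibrillin, changed by -3.20.

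A short stretch before the start of RAB25 is shown because ZEB1 and SNAI1 bind E-boxes with the letters CACCTG, and RAB25 is among the epithelial genes with the largest negative changes in H1975. It is the RefSeq window of 250 bases upstream of the start, chr1:156060910-156061159 on the plus strand of GRCh38.p14, with the E-box letters in capitals.
RAB25: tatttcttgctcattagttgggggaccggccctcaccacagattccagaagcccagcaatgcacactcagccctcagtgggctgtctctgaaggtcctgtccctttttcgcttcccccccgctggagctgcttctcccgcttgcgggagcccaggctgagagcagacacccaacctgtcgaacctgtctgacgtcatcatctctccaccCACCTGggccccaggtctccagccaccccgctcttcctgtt
The match lies 41 bases before the start. Such letters, on either strand, were in 12 of the 21 epithelial genes tested that had a window. These were 10 of the 19 called lower, the 1 called higher and the 1 not called. Over all genes with a window the share was 20.6%. A match is a description of the letters and was not measured as a bound site.

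Matrix genes moved in both directions. Of 24 collagen genes tested, 16 were called higher and 7 lower, and every one of the 6 type IV collagen genes, which form basement membranes, was called lower. Only 5 collagens were higher than in each line and 4 lower. The list summed to 326 to 445 TPM in H1975, 424 to 495 TPM in PC9, 388 to 427 TPM in HCC2935 and 121 to 126 TPM in HCC827. COL4A5 was at 7.76, 6.95 and 5.8 CPM in H1975, against 50.2 to 77.8 CPM in all other libraries (log2 fold change -3.32, SE 0.15). COL4A1 was at 0.655, 0.0648 and 0.492 CPM against 1.69 to 124 CPM and changed by -5.43 (SE 0.34, edgeR adjusted p = 1.89e-08) and COL4A2 by -6.16, although PC9 was also low in COL4A2 (0.906 ± 0.673 CPM, against 0.501 ± 0.277 CPM in H1975). COL1A2, a fibrillar collagen chain, was at 38.8, 18.9 and 12.4 CPM in H1975 and at most 1.94 CPM elsewhere. This was a log2 fold change of 6.12 (SE 0.32, edgeR adjusted p = 3.33e-09). Among integrins and laminins, 17 of 28 were lower and 7 higher. Without replicate 2, 14 were lower. LAMB1, a laminin chain of the basement membrane, was at 26.4 ± 10.6 CPM against line means of 262 to 486 CPM. LAMA4 changed by -4.19. ITGB3, the beta chain of the vitronectin receptor, was the highest member by fold change at 5.74 (SE 0.39, edgeR adjusted p = 4.83e-08).

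**Figure D2:**
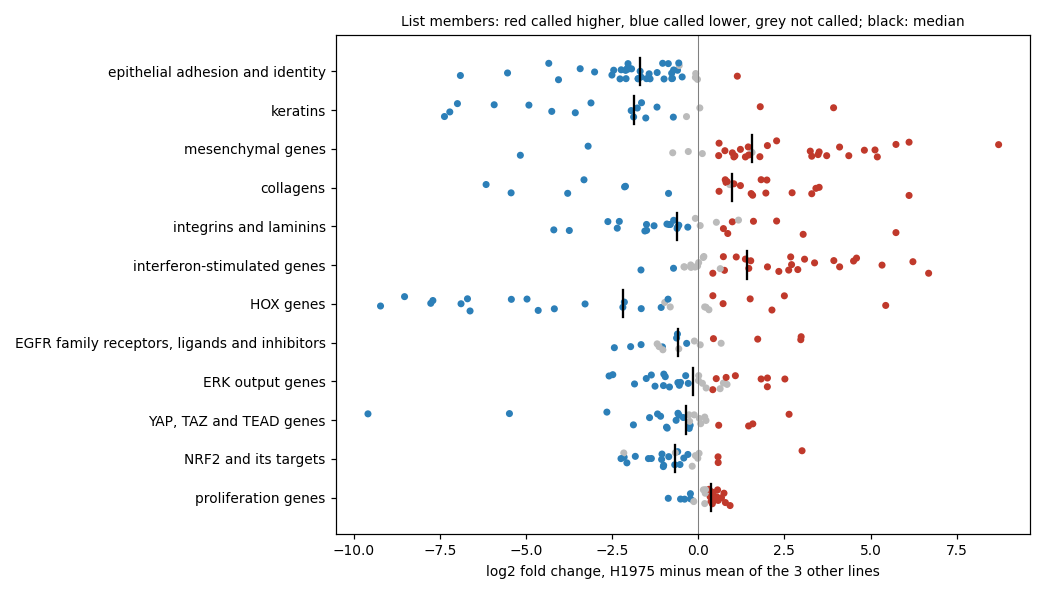
Log2 fold changes of the members of 12 gene lists, H1975 minus the mean of the 3 other lines under DMSO, with a point per gene (red called higher, blue called lower, grey not called) and a black bar at each list's median. Members at 0 in several lines whose fold could not be fitted are not drawn. Epithelial genes and keratins lie mostly left of 0 with medians of -1.68 and -1.88, mesenchymal and interferon-stimulated genes mostly right with medians of 1.56 and 1.42.

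HOX genes encode positional transcription factors that lie in 4 clusters and keep a cell's regional identity. In H1975, 17 of 31 HOX genes tested were called lower and 6 higher, 11 were lower than in each line and none was higher than in each line. Without replicate 2, 18 were lower and 3 higher. The median log2 fold change was -2.19 (-2.15 with members at 0 set to the floor). The HOXB cluster stood out: HOXB2 to HOXB9, all 8 genes tested between those names, were called lower than in each line. The cluster lies on chromosome 17, at positions 48528526 to 48633572 from HOXB1 to HOXB9 in GRCh38, and several of its genes overlap a neighbour or an antisense RNA in the annotation, so that reads may be shared between them. HOXB7 was at 0.173, 0.13 and 0.193 CPM in H1975 and between 11.1 and 29.4 CPM in the other lines. HOXB5 was at 0.0193, 0 and 0.0214 CPM, which is 2 counts over 3 libraries, against 4.05 to 8.62 CPM elsewhere. HOXB9 kept the highest level of the row in H1975, at 1.15 ± 0.182 CPM, against line means of 7.92 to 21.4 CPM (log2 fold change -3.29, SE 0.20, edgeR adjusted p = 1.49e-08). In the other direction, HOXD4 was at 1.44 ± 0.396 CPM, listed at 0 in PC9 and HCC827, and at 2.46 ± 0.566 CPM in HCC2935.

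**Figure D3:**
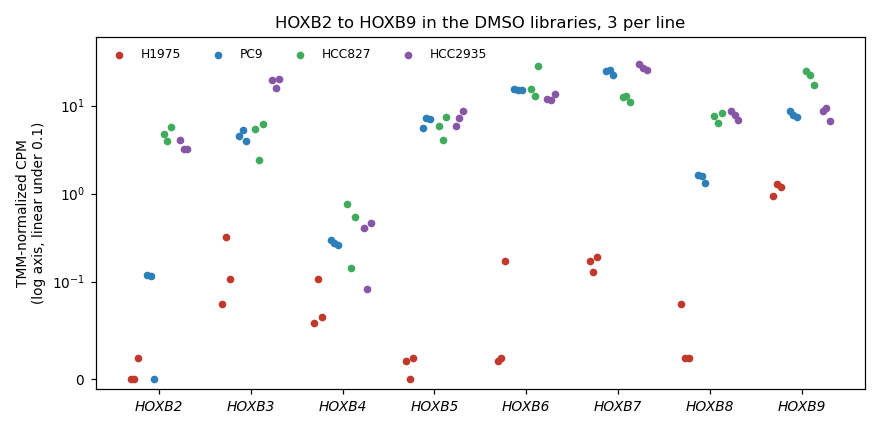
TMM-normalized CPM of HOXB2 to HOXB9 in the 12 DMSO libraries, with a point per library, on a log axis that is linear under 0.1. H1975 (red) lies under 0.35 CPM for HOXB2 to HOXB8 and near 1.15 CPM for HOXB9, and the groups touch for HOXB2 and HOXB4, where PC9 or HCC2935 also hold low values.

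Interferon-stimulated genes were high in untreated H1975. These genes answer type I and II interferon through a shared set of transcription factors, and encode antiviral proteins. Of 34 tested, 22 were called higher and 2 lower, 9 were higher than in each line, and the median log2 fold change was 1.42. Without replicate 2, which stood below the other H1975 libraries in these genes, 22 were higher as well. Their summed TPM was 1760, 1390 and 1480 in H1975 replicates 1 to 3, between 548 and 947 in HCC827 and HCC2935 and between 133 and 142 in PC9. BST2, tetherin, which holds budding virus at the membrane, was at 96.6, 134 and 98.9 CPM in H1975. The next highest library, of HCC827, held 12.3 CPM, and the log2 fold change was 6.69 (SE 0.29, edgeR adjusted p = 6.42e-10). IFI44 was at 76, 33.7 and 63.8 CPM, against 8.5 to 28.1 CPM in HCC827 and HCC2935 and at most 0.255 CPM in PC9. IFIT3, a sensor-associated antiviral protein, was at 116, 41.7 and 90.5 CPM against at most 35.9 CPM. IFITM2, whose near-identical copies IFITM1 and IFITM3 can share its reads, changed by 6.23 (SE 0.24). XAF1, an interferon-induced pro-apoptotic protein, changed by 4.59 and was above every other library. RSAD2, viperin, was at 10.9, 3.5 and 8.64 CPM in H1975 and at 6.17, 7.3 and 10.5 CPM in HCC2935, while PC9 and HCC827 stayed under 0.1 CPM. Its log2 fold change of 5.33 (SE 0.39) therefore rests on PC9 and HCC827 alone. The lower members were GBP3 (log2 fold change -1.66) and MX1 (-0.72, edgeR adjusted p = 0.0356), and without replicate 2 only 1 member was lower.

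The windows before BST2 and IFI44 are shown because both genes were higher than in each line and hold the letters GAAANNGAAA, a core of the interferon-stimulated response element, on either strand. They are 250-base RefSeq windows in GRCh38.p14, chr19:17405631-17405880 on the minus strand for BST2 and chr1:78649539-78649788 on the plus strand for IFI44, with the matches in capitals.
BST2: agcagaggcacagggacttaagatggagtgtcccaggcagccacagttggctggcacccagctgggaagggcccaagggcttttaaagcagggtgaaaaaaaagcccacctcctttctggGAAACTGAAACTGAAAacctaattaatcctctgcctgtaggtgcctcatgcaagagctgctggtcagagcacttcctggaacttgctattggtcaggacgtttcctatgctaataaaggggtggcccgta
IFI44: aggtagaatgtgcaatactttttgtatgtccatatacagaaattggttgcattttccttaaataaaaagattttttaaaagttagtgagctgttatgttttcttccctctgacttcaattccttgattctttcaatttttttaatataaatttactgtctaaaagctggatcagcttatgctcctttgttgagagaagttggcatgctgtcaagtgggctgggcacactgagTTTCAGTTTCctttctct
BST2 holds a pair of overlapping matches, starting 130 and 124 bases before its start, and IFI44 a match 18 bases before it, read on the other strand. Of 22 interferon-stimulated genes tested that had a window, 15 held the letters: 13 of the 15 called higher, 1 of the 2 called lower and 1 of the 5 not called. Over all genes with a window the share was 3.71%. The letters say nothing of which factor was bound in these cells.

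EGFR itself was lower in H1975 than in each other line. It was at 374, 396 and 407 CPM, against 558 to 633 CPM in HCC2935, 1764 to 1978 CPM in PC9 and 7536 to 9884 CPM in HCC827. The groups did not overlap, and the log2 fold change was -2.44 (SE 0.10, edgeR adjusted p = 2.95e-10). Of 18 receptors, ligands and inhibitors of the EGFR family tested, 7 were lower and 4 higher. TGFA, an EGFR ligand, was at 27.8 ± 5.98 CPM against line means of 44.4 to 219 CPM (log2 fold change -1.96, SE 0.13). LRIG1, a transmembrane inhibitor that lowers EGFR, went the other way, with 24.1, 38.2 and 26.8 CPM in H1975 and 1.04 to 14 CPM elsewhere (log2 fold change 2.99, SE 0.19, edgeR adjusted p = 2.17e-08). ERBB3 changed by -1.04, and by -0.66 without replicate 2. ERBB2 changed by -0.61, with values that overlapped those of PC9. NRG1, the ERBB3 ligand, was at 33.9 ± 14.8 CPM, between HCC827 (63.5 ± 20.4 CPM) and the other lines (0.423 and 2.91 CPM).

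Downstream genes moved in both directions. Of 30 genes that ERK signalling induces, 15 were lower and 8 higher, with a median of -0.14 that turned to 0.03 with library size as the only scaling. DUSP6, an ERK phosphatase, was at 11.2, 7.36 and 9.99 CPM against 17.3 to 161 CPM in the other lines (log2 fold change -2.48, SE 0.14, edgeR adjusted p = 1.05e-08). EMP1 changed by -2.59, and SPHK1, sphingosine kinase, by 2.51. Among RAS, PI3K and mTOR genes, 10 of 32 were lower and 11 higher. NF1, a RAS GTPase activator, changed by 0.26 (edgeR adjusted p = 0.0275), and the call was lost without H1975 replicate 2 (adjusted p = 0.103). Bypass receptor kinases and their ligands were split 15 higher and 13 lower of 40. AXL was at 135 ± 52.2 CPM, below PC9 (218 ± 15 CPM) and above HCC827 and HCC2935 (18.9 and 28.2 CPM), and MET (log2 fold change 0.31, or 0.48 with library size as the only scaling) at 522 ± 56 CPM lay between HCC827 (1068 ± 44.4 CPM) and HCC2935 (428 ± 14.5 CPM). PDGFRB was at 5.42 ± 1.88 CPM (2.24 TPM) in H1975, at 0.0686 TPM in PC9 and 0.0207 TPM in HCC827, and listed at 0 in HCC2935.

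Stress and Hippo lists leaned lower against the mean of the other lines, and fewer members were lower than in each line. Of 25 genes of NRF2, the antioxidant regulator, 16 were lower and 3 higher, with a median of -0.68. Only 4 were lower than in each line and 1 was higher. AKR1C3, a member of the list, changed by -2.07, with 4.37 CPM in H1975, 238 CPM in PC9, 6.36 CPM in HCC827 and 4.07 CPM in HCC2935. ABCC3, a drug efflux pump, changed by -2.24. HMOX1, heme oxygenase, was at 149, 128 and 168 CPM in H1975 and at 14.3 to 23.1 CPM in the other lines, the reverse of the list (log2 fold change 3.01, SE 0.10, edgeR adjusted p = 4.3e-11). Of 26 YAP, TAZ and TEAD genes, 15 were lower and 4 higher, and 5 were lower and 2 higher than in each line. VGLL1, a TEAD cofactor, was at 0.0143 ± 0.0247 CPM against line means of 0.274 to 155 CPM. CCN2, a classic YAP target, was higher at 40.5 ± 15.5 CPM against 2.92 to 12.9 CPM (log2 fold change 2.64, SE 0.33). WWTR1, which encodes TAZ, changed by 0.59 and overlapped HCC827. Of 16 genes of the BCL2 family, 7 were lower and 3 higher. BCL2L1, which encodes the survival protein BCL-XL, was at 103 ± 5.81 CPM against line means of 247 to 494 CPM. Proliferation genes leaned higher, with 15 of 26 higher and 5 lower and a median of 0.36. FOXM1, a mitotic transcription factor, was an exception with a log2 fold change of -0.87.

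Surface antigens leaned lower, while aldehyde dehydrogenases and the chemokine and interleukin list were split. Of 32 surface antigens used as antibody targets, 19 were lower and 2 higher (1 without replicate 2), and 11 were lower than in each line. CEACAM6, a carcinoembryonic adhesion molecule, was at 0.122 ± 0.087 CPM in H1975 against 9.64 ± 2.26 CPM in HCC827, 296 ± 143 CPM in PC9 and 5483 ± 188 CPM in HCC2935. Among 19 aldehyde dehydrogenases 9 were lower and 6 higher. ALDH1A3, which makes retinoic acid, was at 26 ± 6.57 CPM against line means of 302 to 2053 CPM (log2 fold change -4.70, SE 0.26). Of 12 MHC class II genes listed 2 were in the table used here, and both were higher than in each line. CD74, the invariant chain, was at 87.7, 85.9 and 63.9 CPM in H1975 and at most 14.3 CPM elsewhere, and CIITA, the class II transactivator, changed by 2.01 (SE 0.26, edgeR adjusted p = 1.77e-05). Chemokines and interleukins split 11 higher and 12 lower of 34 (8 lower without replicate 2). IL7R changed by 4.12 and CXCL16 by -5.87. Of 24 lung lineage genes 11 were lower and 6 higher, and the pioneer factor FOXA1 was at 0.404, 0.389 and 0.278 CPM in H1975, against 40.5 to 157 CPM in every other library (log2 fold change -7.71, SE 0.18, edgeR adjusted p = 3.74e-12).

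Markers of immune cells were low in all lines, and so were most markers of fibroblasts. COL1A1 led the fibroblast list, at means of 28.1 TPM in H1975 and 28.4 TPM in HCC2935. Of 5 immune markers tested 4 were called higher and 1 lower. Of the 8 in the table, CD3E, MS4A1 and LYZ were at 0 in H1975, and the summed level of the list was 12.5 to 18.2 TPM there and 0.881 to 6.7 TPM in the other lines. PTPRC, the leukocyte antigen CD45, was among those called higher, at 4.33, 2.5 and 4.02 CPM against at most 0.411 CPM (log2 fold change 6.33, SE 0.60, edgeR adjusted p = 9.09e-07) and so was CSF1R, at 13.2 ± 2.82 CPM. All 3 fibroblast markers tested were called higher, and the 7 in the table summed to 24.8 to 60.6 TPM in H1975, against 27.2 to 34.3 TPM in HCC2935 and 5.41 to 9.52 TPM in PC9 and HCC827, with none at 0 in H1975. Whether these levels bear on the mesenchymal or interferon lists was not tested.

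Some genes were at 0 counts in untreated H1975, or in all of the other untreated lines. There were 11 genes called higher with all 9 other libraries at 0, and 65 genes called lower with all 3 H1975 libraries at 0. Not all of the 65 were present in each other line: KRT20 held 5 counts in PC9, 5 in HCC827 and 220 in HCC2935. CT45A1, a cancer-testis antigen on the X chromosome that normal tissue expresses mainly in the germline, was at 106, 84.3 and 109 CPM in H1975 and at 0 counts in the other lines. It was at least 2092-fold higher than in any of these lines when each was set to 3 counts over its libraries. CT45A9, CT45A5, CT45A8 and CT45A2 shared the pattern at 39.9, 18.2, 13.9 and 13.5 CPM. These copies are near-identical and lie within positions 135713453 to 135889086 of the X chromosome (GRCh38), so that the split of reads between them is uncertain. XAGE1A was at 309, 501 and 393 CPM in H1975 and at 117 ± 5.48 CPM in HCC827, and PRAME changed by 7.59. The cancer-testis list was not high as a whole: 7 of 21 were higher, 2 lower and 12 not called, among them MAGEA genes at 0 in H1975 and present mainly in PC9, for which no fold could be fitted.

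On the other side, STK26, a kinase of the Golgi and cell polarity, was at 0 counts in H1975 and at 46 to 108 CPM in the 9 other libraries. It was at least 2332-fold lower in H1975 than in HCC2935, the lowest of the other lines. BEX3, an adaptor of the neurotrophin receptor p75, was at 0 counts against 44.4 to 141 CPM, at least 2299-fold lower. SLC1A1, a glutamate transporter, and MARK1, a microtubule affinity kinase, were also at 0 counts, against line means of 11.1 to 14.4 CPM and 5.47 to 11.4 CPM. PRKAA2, an AMPK catalytic subunit, was at 0.0615 ± 0.0173 CPM against line means of 12 to 59.6 CPM (log2 fold change -8.44, SE 0.19). MT1E, a metallothionein that binds zinc and copper, stood at 72.2 ± 1.28 CPM in H1975 and at 0.11 CPM or less as a mean elsewhere, with 0 counts in PC9 (log2 difference 10.68 with PC9 set to 3 counts over its libraries, edgeR adjusted p = 2.78e-10). AIM2, a sensor of cytosolic DNA, was at 16.7 ± 5.49 CPM, at 1.07 ± 0.927 CPM in HCC827 and listed at 0 in PC9 and HCC2935. Of the 65 genes at 0 in the 3 untreated H1975 libraries, 15 were at 0 in all 15 H1975 libraries of the series, and 46 held under 10 counts over all of them. STK26, SLC1A1 and MARK1 were among the 15. Of the 11 genes at 0 in the other untreated lines, 5 were at 0 in all 45 libraries of those lines, all of them CT45A copies.

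Most 2-fold differences of the untreated line were called again in the other arms, where the same contrast was fitted to 12 other libraries of the same lines. Of the 2128 higher genes, 2104 were tested under acute osimertinib and 1945 of them (92.4%) were called higher. In DTPs it was 1632 of 2084 (78.3%), in short washout 1665 of 2096 (79.4%) and in long washout 1655 of 2096 (79%). Of the 1734 lower genes, 1490 of 1717 (86.8%), 1507 of 1719 (87.7%), 1531 of 1718 (89.1%) and 1457 of 1720 (84.7%) were called lower in the same order. Over all genes tested, the shares called higher and lower were 34.4% and 30% under acute osimertinib, 34.5% and 30.9% in DTPs, 36.6% and 31.8% in short washout, and 32.7% and 30.5% in long washout. Opposite calls in these arms were made for between 3 and 90 of the higher genes and between 8 and 24 of the lower genes.

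The epithelial, mesenchymal and interferon lists were followed across the arms. The difference of the contrast between an arm and DMSO was tested in a fit of all 60 libraries, and it shares the DMSO libraries with the untreated comparison. Of 40 epithelial genes, 35 were lower in H1975 under DMSO, 35 under acute drug, 35 in DTPs, 37 in short washout and 35 in long washout. The list median went from -1.68 under DMSO to -1.42 under acute drug, -2.78 in DTPs, -2.86 in short washout and -2.34 in long washout. The difference was called further down for 23 of the 40 genes in DTPs (15.2% of all genes), 22 in short washout (14.7%), 20 in long washout (16.5%) and 2 under acute drug (4.43%). Their summed TPM in H1975 was below that of every library of the other lines in each arm. Of the mesenchymal genes, 26 of 33 were higher in H1975 under DMSO and 27 of 33 under acute drug, against 21, 21 and 22 of 34 in DTPs, short and long washout. Their difference was called negative for 15 of 36 in DTPs, 15 in short washout, 16 in long washout and 1 under acute drug. Their summed TPM in HCC2935 was 1920 to 2420 under DMSO and 9700 to 11300 in DTPs, where H1975 held 5550 to 7330, and HCC2935 was also above H1975 in both washouts. Of 34 interferon-stimulated genes, 22 were higher under DMSO and 24 under acute drug, but 9 in DTPs, 9 in short washout and 10 in long washout, where 14, 16 and 12 were lower. Their difference was called negative for 26 of the 34 genes in DTPs, 26 in short washout, 26 in long washout and 6 under acute drug. The summed TPM of the list in H1975 was 1390 to 1760 under DMSO and 1800 to 2270 in DTPs. It lay above that of every library of the other lines in each arm except DTPs, where it overlapped HCC827. In PC9 it went from 133 to 142 under DMSO to 1050 to 1130 in DTPs, and in HCC827 from 548 to 765 to 1190 to 1880. In HCC2935 the ranges overlapped, at 664 to 947 under DMSO and 819 to 953 in DTPs. A sum is led by its most abundant members, and the counts of genes above weigh each gene alike.

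**Figure D4:**
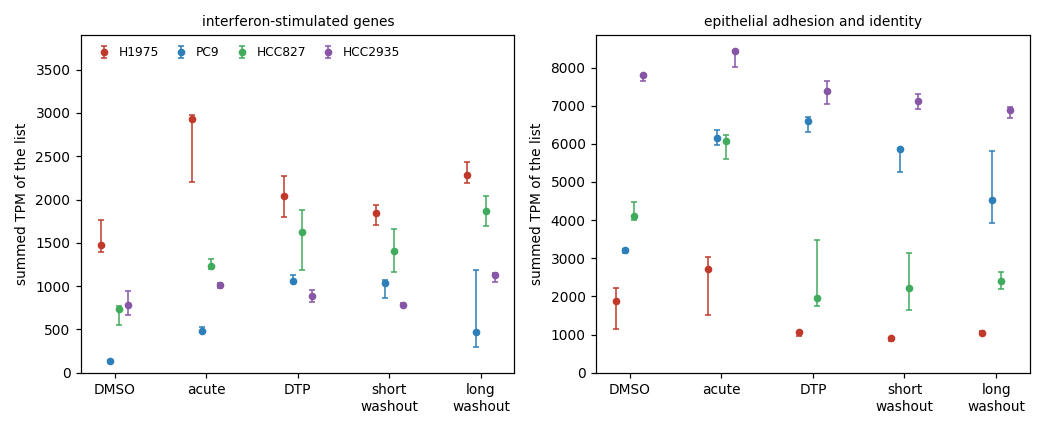
Summed TPM of 34 interferon-stimulated genes (left) and 40 epithelial genes (right) by arm and line, with a point at the median of 3 libraries and whiskers from the lowest to the highest. H1975 (red) has the highest median on the left in every arm, with 1390 to 1760 TPM under DMSO, and its range overlaps that of HCC827 in DTPs only. It is lowest on the right in every arm.

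Differences were spread unevenly over chromosomes. For 14813 genes with a position in GENCODE release 29, chromosome 13 had the lowest median log2 fold change, -0.40, with 52.3% of its 235 genes called lower. Chromosome 2 followed at -0.28 and chromosome 15 at -0.27. Chromosome 19 had the highest median, 0.39 over 1142 genes, ahead of chromosome 3 at 0.37 and chromosome 10 at 0.36, where 50.4% of 558 genes were called higher. The medians of chromosomes 2, 13 and 15 were below 0 against each line alone and under each scaling, and those of chromosomes 3, 5, 10, 19 and 20 were above 0. COL4A1 and COL4A2 lie on chromosome 13. The median of chromosome 12 was -0.17 against the mean and 0.30 against HCC2935 alone. Genes of a chromosome are not independent, copy number was not measured here, and its part in these values was not tested.

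**Figure D5:**
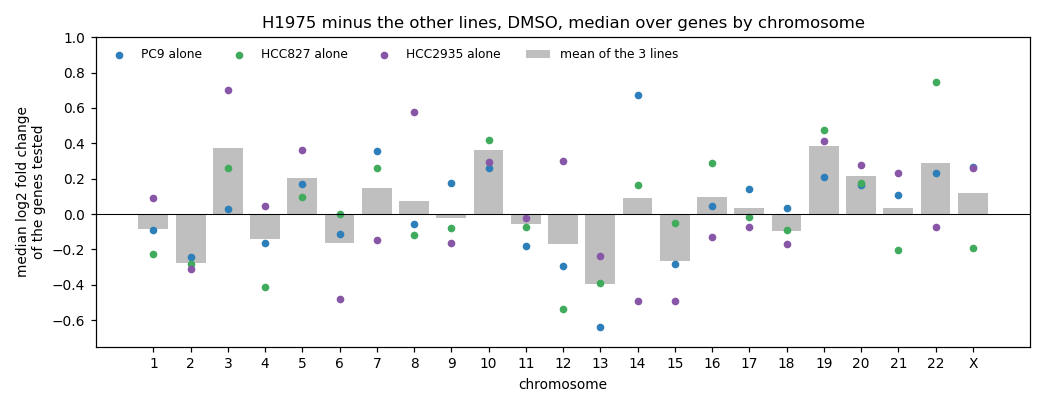
Median log2 fold change of the genes tested on each chromosome, H1975 minus the mean of the 3 other untreated lines (grey bars) and minus each line alone (points). Chromosomes 2, 13 and 15 lie below 0 and chromosomes 3, 5, 10, 19 and 20 above 0 for the mean and for every line, whereas others, such as chromosomes 12, 14 and 22, change sign with the line.

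Regulators chosen by name for their link to EGFR inhibitor response were close between the lines or set apart from some of them only. EZH2, the Polycomb methyltransferase, was at 78.5 ± 9.48 CPM against line means of 63.9 to 91.8 CPM (log2 fold change 0.04, edgeR adjusted p = 0.655, and called at 0.21 with library size as the only scaling). KCTD5 was at 73.1 ± 1.15 CPM against 50.1 to 78.2 CPM (log2 fold change 0.15, edgeR adjusted p = 0.25), and was called at 0.32 with library size as the only scaling and at 0.21 without HCC827 replicate 2. CDKN2A was at 22.8 ± 7.25 CPM, with line means from 0.349 to 206 CPM on both sides, and was called (log2 fold change 0.49) only without H1975 replicate 2. KEAP1, which marks NRF2 for degradation, changed by 0.58 (SE 0.12, edgeR adjusted p = 0.000821), at 135 ± 27.5 CPM between PC9 (176 ± 21.6 CPM) and the other lines. SRC changed by -1.30 and overlapped PC9.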

How the data were processed

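RNA from 60 cultures was sequenced as TruSeq mRNA libraries with paired 150 bp reads. The submitters' processing notes name HISAT2 2.1.0, Salmon 0.8.2 and hg38, with no role for each, and annotation, strand setting and filters are not given in the sources used here. The authors deposited estimated counts per gene without normalization, which were rounded to whole numbers here. The authors also deposited log2 TPM values per gene, which were turned back to TPM (totals 0.806 to 0.891 M per library over the genes in the table) for levels and list sums.

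Groups came from the sample labels. The 12 DMSO libraries were fitted with edgeR 4.0.16 (R 4.3.3, filterByExpr, TMM, quasi-likelihood test, Benjamini-Hochberg adjustment over all 15214 genes tested, threshold 0.05), with H1975 minus the mean of the other 3 line means as contrast and each line alone beside it. The paper describes no model for these data. The test was checked on simulated data with 200 of 14884 genes changed in H1975, the same spread for every gene and no differences among the other lines. It recovered 95% of log2 changes of 1 and 100% of those of 2, and 4.9% of its calls were false. These data hold far more called genes and differences among all lines, so that these shares need not hold for the calls made here. The 4 other arms were fitted in the same way, and differences between arms in a fit of all 60 libraries. Fitted folds of genes at 0 in a group are not printed as bounds, which use a floor of 3 counts over the group. Intervals of depth cover counting error only: replicates differed by 8.83 to 85.3 times the counting variance. Replicate numbers were not treated as pairing the libraries of different lines in the main fit.

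Alternatives were DESeq2 1.42.0, limma 3.58.1 on log2(TPM + 0.01), other scalings, filters and thresholds, thinned libraries, a replicate block and leaving out each library. The lists without H1975 replicate 2 were added after seeing the data. The groups, lists and tests were chosen with earlier results of these data known. Named were a fixed set (EGFR, ERBB2, ERBB3, MET, AXL, CDH1, EPCAM, VIM, ZEB1, CDKN2A, KEAP1, NF1, EZH2, KCTD5, WWTR1 and SRC), the 15 highest and 15 lowest non-overlapping genes called against each line with at least 5 CPM, and up to 4 called members of each list with the largest change and at least 1 CPM in a line. ABCA3, DSP, KRT7, SNAI1, CDH2, FBN1, COL4A5, HOXB2 to HOXB4, HOXB7 to HOXB9, HOXD4, IFI44, IFIT3, GBP3, MX1, BCL2L1 and the MAGEA genes fall outside this rule and were chosen after their values were seen. Positions are from GENCODE release 29 (GRCh38) and upstream sequences from RefSeq (GRCh38.p14), where a window was available for 22 of 34 interferon-stimulated and 21 of 40 epithelial genes. Some genes and a list covered by the rule are not reported here. Overlapping genes, antisense genes and near-identical copies may share reads.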

Additional observations from a re-analysis of the deposited data

Results flagged for a closer look

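Among the named genes, there were 10 for which the difference between H1975 and the mean of the other lines was called under DMSO and called with the opposite sign in another arm, and the change of the difference itself was called in the fit of all 60 libraries (edgeR, adjusted over all genes). These comparisons share the DMSO libraries. RSAD2, viperin, had a log2 difference of 5.33 under DMSO and of -1.75 in long washout, a change of -7.10 (edgeR adjusted p = 1.1e-09). Its mean in H1975 was 7.67 CPM under DMSO and 1.1 CPM in long washout, and its change was -6.95 in DTPs and -6.52 in short washout. The other lines moved as well. Under DMSO, RSAD2 was at 0.005 TPM in PC9 and 0.0357 TPM in HCC827, against 4.03 TPM in H1975. The lowest of the other line means was 0.995 CPM in long washout, 1.55 CPM in DTPs and 2.11 CPM in short washout. WNT9A, a WNT ligand, went from 3.66 under DMSO to -0.33 in DTPs, a change of -4.00, with H1975 means of 119 and 19.8 CPM. The highest of the other line means for WNT9A was 27.4 CPM under DMSO and 90 CPM in DTPs. SPHK1 went from 2.51 to -0.63 in long washout, a change of -3.16, with H1975 means of 37.9 and 3.68 CPM.

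The other 7 genes were as follows. CDH5, VE-cadherin, changed by 3.39 in DTPs, with H1975 means of 1.04 and 7.05 CPM. PIK3R3, a PI3K regulatory subunit, changed by 1.63 in DTPs, with H1975 means of 19 and 44.4 CPM. CDKN1C, a CDK inhibitor, changed by -2.89 under acute osimertinib while its H1975 means were 7.38 and 7.18 CPM, and the highest of the other line means was 3.56 CPM under DMSO and 21.8 CPM under acute drug. AXL changed by -1.86, PLK1, a mitotic kinase, by -1.36 and MET by -0.86 in long washout. H1975 means under DMSO and in long washout were 135 and 107 CPM for AXL, 239 and 57.1 CPM for PLK1, and 522 and 290.4 CPM for MET. For AXL, the means of the other lines ran from 18.9 to 218 CPM under DMSO and from 88.9 to 188 CPM in long washout. WWTR1 changed by -1.13 in short washout, with H1975 means of 157 and 59.3 CPM. The cause of these changes was not tested.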

How the results depend on the processing

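The count of called genes (9267), of 2-fold genes (3862) and of genes that differed from each line (2841) kept within 1.5 times under DESeq2 (9660, 4081 and 2902), a threshold of 0.01 (7587, 3520 and 1992), library thinning, other scalings and limma on log2 TPM. The exception was a filter of at least 10 counts in every library, which removes genes absent from a line and left 1971 genes with a 2-fold change. Leaving out each library gave 8169 to 9635, 3728 to 3990 and 2447 to 2883. With library size as the only scaling, 6328 genes were higher and 3280 lower, and the list medians of bypass receptor kinases (0.17), ERK output (0.03), RAS, PI3K and mTOR (0.17) and TGF-beta and BMP genes (0.10, from -0.07) rose, of which ERK output and TGF-beta turned sign. With RLE size factors the bypass median was -0.00127 and the RAS, PI3K and mTOR median -0.00169.

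Replicate numbers were not treated as pairs across the lines in the main fit. The correlation of same-numbered deviations from the line means was -0.214 to 0.163, with 4 of 18 over 0.1, which cannot tell whether libraries of a number shared a batch. A replicate block gave 9185, 3840 and 2809 genes and changed none of these counts by over 1.5 times.

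Among 165 named genes tested, none changed direction after a call. Calls of BCL2A1, EGR2, KRT20, KRT5, LEF1, NF1, SPATA18 and VIL1 were lost under at least 1 alternative, and CDKN2A, EZH2 and KCTD5 gained one. Without H1975 replicate 2, list counts moved over 1.5 times for interferon-stimulated genes lower (1 from 2), HOX genes higher (3 from 6), surface antigens higher (1 from 2) and endothelial markers higher (1 from 0). Of 23 chromosome medians, 13 had the opposite sign against at least 1 line alone. Those with both values more than 0.1 from 0 were chromosome 7 (-0.147 against HCC2935), chromosome 12 (0.299 against HCC2935) and chromosome X (-0.189 against HCC827). Whole chromosomes were used because no centromere positions were used here. HCC827 and HCC2935 were sequenced less deeply than the other lines, which limits low-count genes.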

Other observations

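Other pathway lists were split in untreated H1975. Of 54 Notch and WNT genes, 22 were called lower and 14 higher, with a median log2 fold change of -0.58. WNT9A was among the higher ones at 119 CPM as a mean, against at most 27.4 CPM as a mean elsewhere (log2 fold change 3.66). Of 40 TGF-beta and BMP genes, 17 were lower and 10 higher, and INHBB, an activin subunit, changed by -5.56. Of 33 SWI/SNF and Polycomb genes 12 were lower and 8 higher, of 25 ABC transporters 9 were lower and 8 higher, and of 19 genes of G1 cyclins and CDK inhibitors 6 were lower and 7 higher (4 lower without H1975 replicate 2). Of 11 MHC class I and presentation genes, 5 were higher and 3 lower, and none differed from each of the 3 lines in 1 direction. Of 10 gut and gastric lineage genes, 4 were lower and 1 was higher.

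Markers of further cell types were also counted. Squamous markers (1 higher and 3 lower of 6 tested) summed to 1.5 to 6.84 TPM in H1975, close to HCC827 (1.69 to 5.8 TPM) and below PC9 (48.6 to 68.3 TPM) and HCC2935 (145 to 176 TPM). Of 5 endothelial markers 2 were lower, and the list summed to 2.09 to 3.27 TPM in H1975. Of 5 neuroendocrine markers 2 were higher and 1 lower, with a sum of 3.74 to 4.13 TPM in H1975.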
